A study of Saccharomyces cerevisiae with 38 samples.

Results

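The gcn5 mutant of Saccharomyces cerevisiae was compared with wild type (WT) on 10 of 38 arrays: the 2 arrays titled gcn5, A and B, and the 8 arrays titled WT, A to H. The arrays were chosen by their titles alone. Each is a 2-colour hybridisation of polyA RNA from a test strain against RNA from the WT strain yMD13. The test strain is yJS4 on the gcn5 arrays and yMD13 itself on the WT arrays, so the WT arrays show the spread of a comparison with no genetic difference. The labels do not say what the gcn5 mutation is. Cells of every group were grown in CSM-HIS medium to an OD600 of about 0.8 and held at 37 °C for 45 minutes before harvest, so all values describe cells after a heat shift. The strain was labelled with Cy5 on array A and with Cy3 on array B. The labels do not say whether A and B came from separate cultures, so the p-values measure a spread that may be technical. The other mutants set beside gcn5 were esa1 (strain yMD27), the TAF1 mutant ts2 (yMD14), the double mutant gcn5 ts2 (yJS5), and the single mutants elp3 (yMD5), hat1 (yMD7), hpa2 (yMD9) and sas3 (yMD11), all grown and heated in the same way.

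Gcn5 is a histone acetyltransferase (HAT), an enzyme that adds acetyl groups to lysines of histone tails, mainly of histone H3 in nucleosomes at promoters. It works as the catalytic subunit of the SAGA and ADA coactivator complexes, where Ada2 and Ngg1 (Ada3) hold it and raise its activity, and SAGA also delivers the TATA-binding protein to promoters. In yeast it is best known at inducible genes such as the acid phosphatase gene PHO5, the mating-type switch gene HO and targets of the activator Gcn4.

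Values are log2 ratios of test strain over WT reference, centred on each array's median, and a log2 change is the fitted mean of the 2 gcn5 arrays with the dye effect removed. A gene was called changed when limma's adjusted p was under 0.05 and both gcn5 arrays had the same sign. Of 5542 genes tested, 1003 (18.1%) were called. Of these, 499 rose (9.0%) and 504 fell (9.09%), and the change was at least 2-fold for 72 that rose and 76 that fell. This fit set the WT mean at 0, since the WT reference is on every array. With the WT mean estimated from the WT arrays, 773 genes were called, 376 higher and 397 lower. Across genes the 2 gcn5 arrays correlated at r = 0.657. Array A also correlated at 0.271 with WT array B, and array B at 0.139 with WT array F. The arrays of each pair have the same dye orientation and slide run, whose part in the results was not tested. Slide runs were inferred by grouping nearby slide numbers in the array titles, and the labels name no run. Both gcn5 arrays lie in slide run 2, and of the WT arrays only B and F do. The median standard error of a log2 change was 0.158. The count was 415 without array A and 477 without array B, and 205 of the 1003 genes were called in both. Each of these fits leaves 1 gcn5 array, which is assumed to vary like the arrays of the other groups, and the same holds wherever a p-value or count without array A or B is given. On the deposited scale, with no centring, 29 genes were called and the median gene lay at 0.19, so every change here is relative to the median gene. The median gene of each chromosome lay between -0.06 (chromosome I) and 0.04 (chromosome XII).

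**Figure D1:**
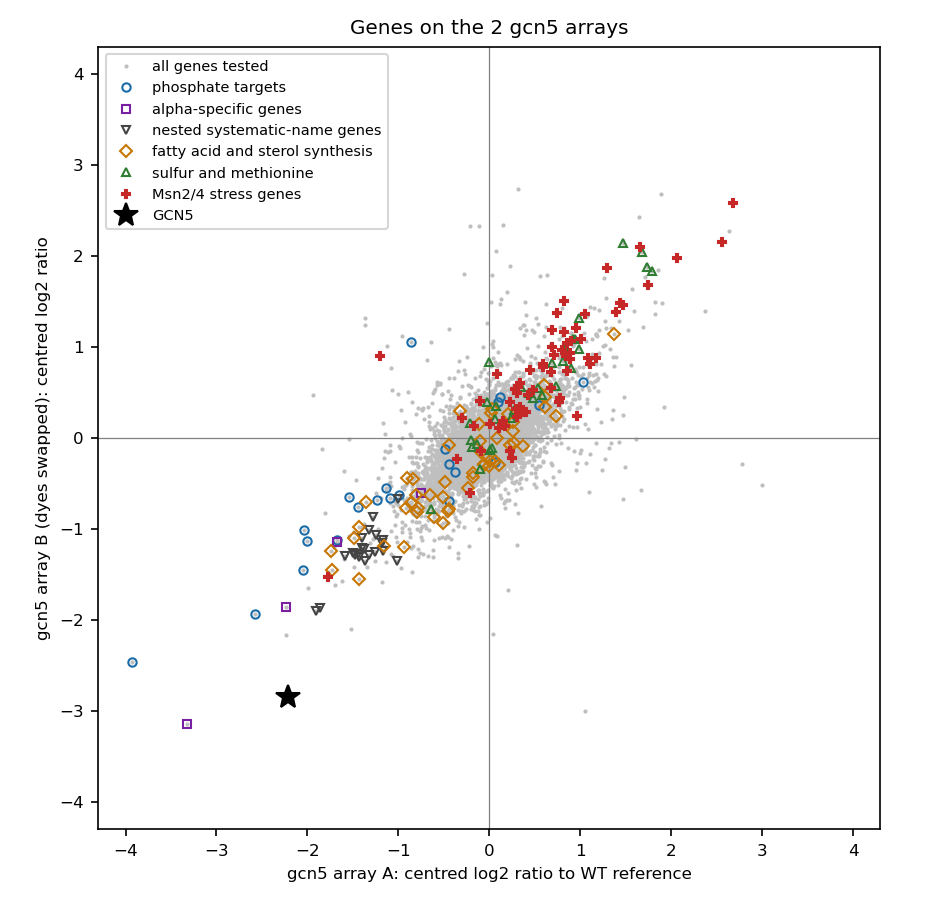
Centred log2 ratio to the WT reference on gcn5 array A (x axis) and on gcn5 array B with swapped dyes (y axis), 1 point per gene, with members of 6 gene lists and GCN5 marked. GCN5, the alpha-specific genes and many phosphate targets lie low on both arrays, and most stress and sulfur genes lie high on both.

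GCN5 itself checks the label. It stood at -2.21 on array A and -2.85 on array B, against -0.28 to 0.45 on the WT arrays, and fell by 2.53 on the log2 scale (SE 0.17, adjusted p = 1.6e-10). On the 34 arrays without gcn5 in their title it ranged from -0.42 to 0.53, and on the 2 gcn5 ts2 arrays from -3.42 to -3.00. In RefSeq's gene order GCN5 lies between NOP19, a factor of small ribosomal subunit assembly, and PUP2, a proteasome subunit. NOP19 rose (log2 change 0.69, adjusted p = 0.002; 0.073 without array B), and PUP2 stood at 0.11 and 0.08. MGA1, a heat-shock-factor-like gene 3 genes before GCN5 in that order, stood at -1.68 and -1.16 against -0.87 to 0.58 in WT, and fell (log2 change -1.42, adjusted p = 6.3e-05). SOL4, RIE1, ENO1 and COQ6, also close to GCN5, were not called. TNA1, the nicotinic acid permease, which was listed with these genes but is not next to GCN5, stood at -1.16 and -1.09 against -0.18 to 0.18 in WT and fell (adjusted p = 4.3e-08), and TIF4632, listed likewise, stood at 0.10 and 0.32 and was not called.

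Of 22 SAGA and ADA genes tested, GCN5 and UBP8 fell and RTG2 and SPT8 rose, or 9.1% each way, which is near the 9.09% and 9.0% of all genes. UBP8 encodes the ubiquitin protease of SAGA. It stood at -0.61 and -0.70 against -0.20 to 0.30 in WT (log2 change -0.66, SE 0.11, adjusted p = 0.00014). SPT8, a subunit that binds the TATA-binding protein, stood at 0.41 and 0.33 against -0.11 to 0.20 in WT (log2 change 0.37, adjusted p = 0.0041; 0.06 without array A and 0.12 without array B). RTG2, a subunit of the SAGA-like complex SLIK, changed by 0.28 (adjusted p = 0.0059; 0.4 without array B). The direct partners ADA2 (0.22 and -0.10), NGG1 (0.03 and 0.05) and SGF29 (-0.43 and -0.14) were not called, and each overlapped its WT range.

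Many genes that take up and store phosphate fell. The list of phosphate targets was built around genes that the activator Pho4 switches on when phosphate is scarce. It also holds PHO3, a phosphatase made in rich phosphate. Of 22 tested, 13 fell and 1 rose, against 9.09% and 9.0% of all genes, and 13 lay below every WT array, against 13.1% of all genes. The median log2 change was -0.83 (-1.04 on array A, -0.64 on array B), against -0.12 to 0.21 for the same genes' median on the WT arrays. Of the 13, 12 were lower on array A than on array B, and the number that fell was 4 without array A and 10 without array B. With the slide run entered as a block 10 fell.

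PHO84, the high-affinity phosphate transporter, stood at -3.93 and -2.46. The WT arrays ranged from -1.50 to 0.38 with a median of -0.20. Both gcn5 arrays thus lay below all WT arrays, with a 9.16-fold fall (log2 change -3.20, SE 0.52, adjusted p = 6.2e-05). SPL2, which damps low-affinity phosphate uptake, stood at -2.58 and -1.93 against -0.77 to 0.21 in WT (adjusted p = 7.3e-05). The genes VTC1 to VTC4, which encode subunits of the vacuolar polyphosphate polymerase, all fell. VTC3 stood at -2.05 and -1.45, VTC4 at -1.44 and -0.76, VTC2 at -1.13 and -0.55, and VTC1 at -0.99 and -0.63. No WT array was below -0.53 for VTC3, and for the other subunits none was below -0.32. Of these 4, VTC3 alone stayed called without array A (adjusted p = 0.025, against 0.061 to 0.14 for the others), and VTC1 was lost without array B too (0.076).

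The acid phosphatases that yeast secretes fell as well. PHO5 stood at -1.67 and -1.12 against -0.74 to 0.42 in WT, and PHO11 at -2.04 and -1.02. PHO12 fell by 1.57 on the log2 scale (-1.13 on array B). PHO11 and PHO12 are near-identical copies, and a PCR spot of one can bind cDNA of the other. PHO3, the phosphatase made in rich phosphate, stood at -0.44 and -0.70 against -0.03 to 0.29 in WT. PHO8, the vacuolar alkaline phosphatase, stood at -1.24 and -0.68 against -0.15 to 0.23. The calls of PHO5, PHO8, PHO11 and PHO12 were lost without array A (adjusted p = 0.064, 0.059, 0.08 and 0.15), and that of PHO3 without array B (0.18).

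Other phosphate targets did not pass. PHO89, the sodium-coupled phosphate transporter, stood at -0.86 on array A and 1.06 on array B, with WT from -0.96 to 3.59. GIT1, PHO86, PHO81, GDE1, CTF19, DDP1 and PHM7 had log2 changes between -0.37 and 0.46. PHM6 was called (log2 change -1.10, adjusted p = 0.041) although its array B value of -0.65 lay inside the WT range. GPP2, a glycerol phosphatase, was the member that rose, at 1.03 and 0.62 against -0.26 to 0.24 in WT (adjusted p = 3.2e-05).

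**Figure D2:**
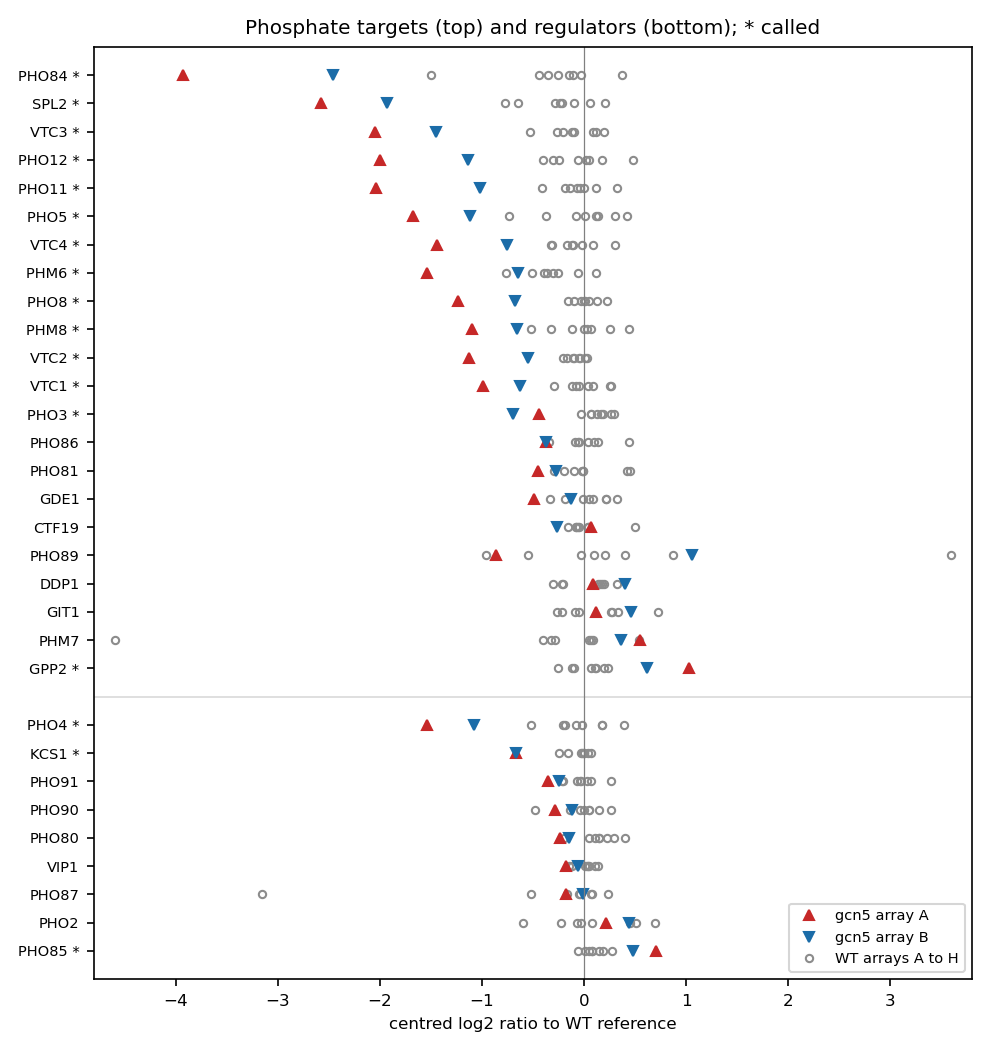
Centred log2 ratio to the WT reference (x axis) of each phosphate target (top) and regulator (bottom) on gcn5 array A, gcn5 array B and the 8 WT arrays, with called genes starred. PHO84 sits at -3.93 and -2.46 while its WT arrays sit between -1.50 and 0.38, and the activator gene PHO4 is low as well.

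Among 10 genes of the phosphate regulators, PHO4 and KCS1 fell and PHO85 rose (20.0% and 10.0%, against 9.09% and 9.0% of all genes). PHO4, the activator of the targets, stood at -1.54 and -1.08, below a WT range of -0.52 to 0.39 (log2 change -1.31, SE 0.16, adjusted p = 2.1e-06; 0.0013 without array A and 0.00075 without array B). PHO85, the cyclin-dependent kinase that keeps Pho4 inactive when phosphate is plentiful, stood at 0.71 and 0.48 against -0.06 to 0.28 in WT (log2 change 0.59, adjusted p = 2.4e-05). KCS1 makes the inositol pyrophosphates that signal phosphate status. It stood at -0.67 on both arrays, below all WT arrays (adjusted p = 3.5e-05). The cyclin gene PHO80 (-0.24 and -0.15) and the Pho4 partner PHO2 (0.21 and 0.44) were not called, and neither were PHO81, the kinase gene VIP1 and the low-affinity transporter genes PHO87, PHO90 and PHO91, with log2 changes between -0.36 and -0.10.

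All 4 alpha-specific genes fell, against 9.09% of all genes, with a median log2 change of -1.73. These genes are expressed in haploid cells of mating type alpha. MF(ALPHA)2, a gene of the alpha-factor pheromone, stood at -3.32 and -3.14 against -0.85 to 0.67 in WT (adjusted p = 6.5e-09). SAG1, the alpha-agglutinin, stood at -2.23 and -1.86 against -0.89 to 0.74, and STE3, the receptor for a-factor, at -1.67 and -1.14 against -0.68 to 0.34. MF(ALPHA)1, the main alpha-factor gene, stood at -0.76 and -0.61 against -0.27 to 0.49 and was called at an adjusted p of 0.04, which was 0.64 without array A and 0.055 without array B. All 8 gcn5 values lay below the WT arrays. AFB1, an a-factor barrier protein made by alpha cells, also stood low, at -1.49 and -1.42 against -0.44 to 0.24 (adjusted p = 3.8e-07).

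The 7 a-specific genes, markers of the opposite mating type, had no call. Their median log2 change was 0.38. MFA1, an a-factor gene, stood at 1.34 on array A and 0.21 on array B, with WT arrays from -3.89 to 0.77. AGA2 stood at 0.98 and 0.45, above a WT range of -2.74 to 0.39 (adjusted p = 0.35). The a-specific receptor gene STE2 stood at 0.37 and 0.84 against -0.20 to 0.69 (adjusted p = 0.22). The mating type of the strains is not in the labels. STE6 (-0.42 and -0.17) and BAR1 (-0.09 and -0.16) lay on the other side of 0.

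Genes that respond to pheromone fell in part. Of 20 pheromone outputs 9 fell (45.0%, against 9.09% of all genes) and none rose (9.0% of all genes), with a median of -0.64. The WT arrays had medians of -0.20 to 0.07 for the same genes. The number that fell was 1 without array A and 7 without array B. Entering the slide run as a block left 2. The adjusted p of AGA1 was 0.15 without array A and that of FUS1 was 0.086. AGA1, the anchor of a-agglutinin, stood at -1.38 and -0.95 against -0.51 to 0.37. FUS1, a cell fusion gene, stood at -1.29 and -0.88 against -0.24 to 1.12, and KAR4, a transcription factor of mating, at -0.94 and -0.56 against -0.50 to 0.11. PRM10 (-1.60 and -0.37) and PRM4 (-1.10 and -0.49) were called although array B lay within the WT range.

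In the signalling pathway upstream of those outputs, 5 of 21 genes fell (23.8%, against 9.09% of all genes) and none rose. STE3 of the alpha-specific genes was among the 5. SST2, which switches the pheromone G protein off, stood at -1.26 and -1.07 against -0.15 to 0.22 (adjusted p = 1.3e-05). FUS3, the mating MAP kinase, stood at -0.84 and -0.79 against -0.13 to 0.28 (adjusted p = 1.5e-05). The G-protein genes GPA1 (-0.58 and -0.46) and STE4 (-0.61 and -0.53) fell less, and both calls were lost without array A (adjusted p = 0.17 and 0.23), that of STE4 also without array B (0.053). STE12, the activator of the outputs, stood at -0.11 and 0.05. RME1, a haploid-specific repressor of meiosis, rose, at 1.08 and 1.34 against -0.29 to 0.39 in WT (adjusted p = 2.3e-07). Of the 11 haploid-specific genes 4 fell and 1 rose (36.4% and 9.1%, against 9.09% and 9.0% of all genes). The list's median of -0.18 was 0.01 on the deposited scale.

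**Figure D3:**
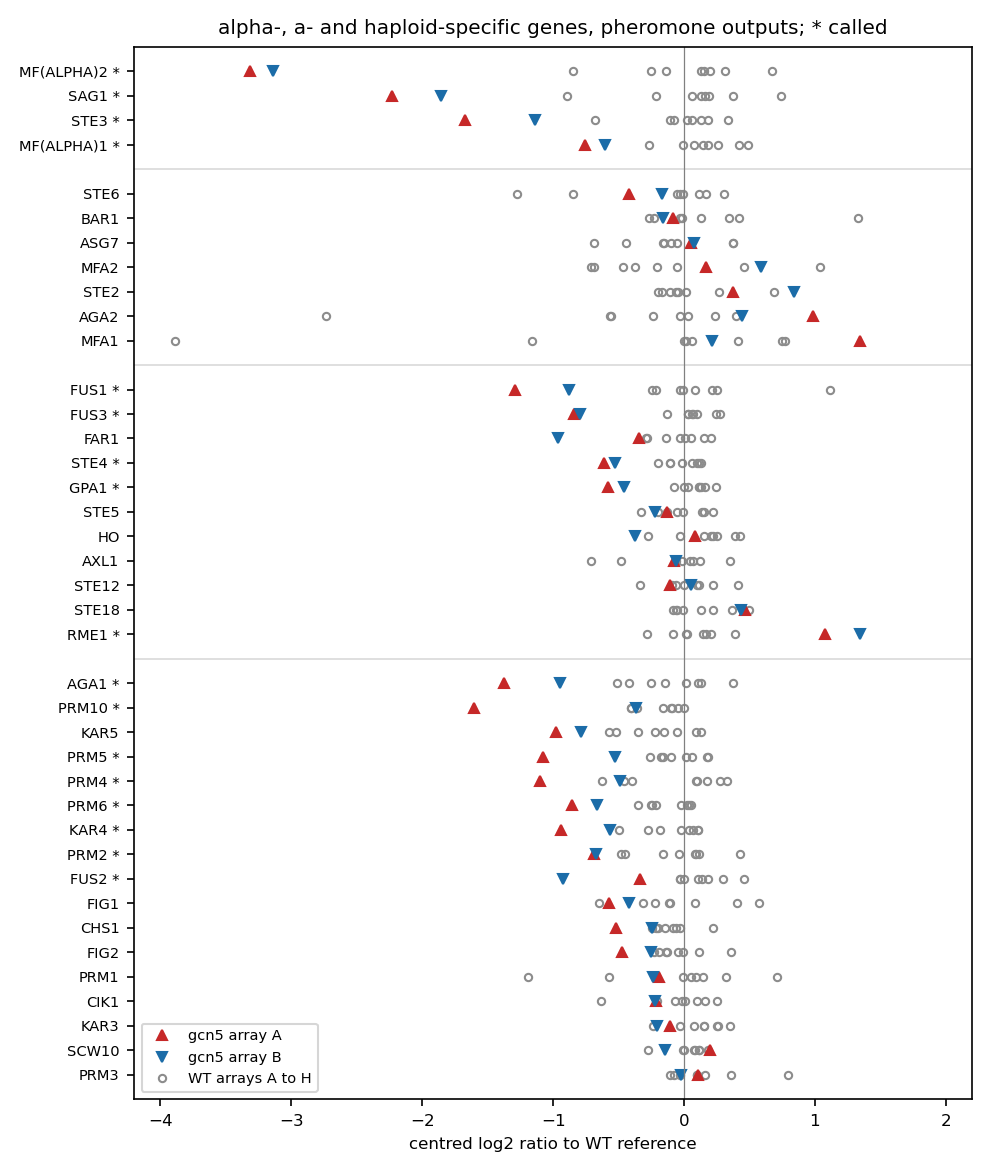
Centred log2 ratio to the WT reference (x axis) of alpha-specific, a-specific and haploid-specific genes and pheromone outputs, from top to bottom, on gcn5 array A, gcn5 array B and the 8 WT arrays, with called genes starred. The alpha-specific genes lie below all WT arrays on both gcn5 arrays, and the a-specific genes have no star.

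A further group stood out among genes that RefSeq lists by systematic name alone. The rule took each such gene longer than 5000 bases together with the shorter genes inside it on the same strand. It was written after low values of some of these genes had been seen. Of the 21 with a spot, all 21 fell, against 9.09% of all genes. The log2 changes of the 21 ran from -1.91 to -0.84, with a median of -1.30. The medians on arrays A and B were -1.37 and -1.26, against -0.30 to 0.16 on the WT arrays. Of the 21, 20 lay below every WT array, against 13.1% of all genes. YCL019W stood at -1.91 on both arrays against -0.31 to 0.33 in WT (adjusted p = 1.4e-09). YJR027W stood at -1.50 and -1.26 against -0.43 to 0.36 (adjusted p = 4.9e-05). YFL002W-A, at -1.02 and -1.35, overlapped a WT range of -1.19 to 1.20. By the rule each short gene lies inside a long one, and such pairs lie at several places in the genome. Their sequences were not compared, and whether a spot of one also bound RNA of another was not tested, so the 21 genes cannot be taken as independent. The number that fell was 14 without array A and 20 without array B.

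Genes of fatty acid and sterol synthesis, a list also drawn up after several of its members had been seen to fall, held 21 lower and 4 higher of 50. The share lower was 42.0%, against 9.09% of all genes. The share higher, 8.0%, was near the 9.0% of all genes. The list's median was -0.27, against -0.12 to 0.08 in WT. The number that fell was 14 without either array. OLE1, the fatty acid desaturase, stood at -1.74 and -1.24 against -0.47 to 0.17 (log2 change -1.49, SE 0.18, adjusted p = 1.3e-06). Both subunits of fatty acid synthase were low. FAS1 stood at -1.48 and -1.10 and FAS2 at -0.80 and -0.82, where no WT array was below -0.29 and -0.60. FAS1 was not called without array A (adjusted p = 0.34) or without array B (0.067). ACC1, which makes the malonyl units for that synthase, stood at -0.86 and -0.72 against -0.32 to 0.01 (adjusted p = 0.0011; 0.099 without array A). FAA4, which activates imported fatty acids, stood at -0.94 and -1.20 against -0.35 to 0.17. BIO2, which makes biotin, the cofactor of Acc1, stood at -1.43 and -0.98 against -0.38 to 0.31.

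The sterol side held all 4 members that rose, beside others that fell. ERG27, a sterol reductase, stood at -1.16 and -1.19 against -0.12 to 0.38 (adjusted p = 6.5e-09). HES1, an oxysterol-binding protein, stood at -1.43 and -1.55, and IZH2, a membrane protein tied to zinc and sterol metabolism, at -1.74 and -1.46. ERG26, ERG7, ERG4, ERG9 and ERG1 also fell, the calls of ERG9 (adjusted p = 0.051) and ERG1 (0.099) being lost without array B. ERG25, the methylsterol oxidase of the same pathway, stood at 1.37 and 1.14 against -0.07 to 0.14 in WT and rose (log2 change 1.26, adjusted p = 4.7e-08). ERG3, ERG11 and IZH3 rose by 0.49 to 0.59, and all 3 calls were lost without array A or without array B.

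Genes of sulfur assimilation and methionine metabolism rose. This pathway turns sulfate into sulfide, homocysteine, methionine and S-adenosylmethionine. Of 33 tested, 18 rose and 1 fell (54.5% and 3.0%, against 9.0% and 9.09% of all genes). Of the 33, 19 lay above every WT array, against 12.6% of all genes. The median was 0.47 (0.48 on array A, 0.55 on array B), against -0.11 to 0.01 on the WT arrays. The number that rose was 12 without array A and 11 without array B. It was 15 when the slide run was a block.

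The highest log2 changes in the list were those of MUP1, MET17, MET6 and STR3. MUP1, the high-affinity methionine permease, stood at 1.68 and 2.05 against -0.55 to 0.13 in WT (log2 change 1.86, SE 0.18, adjusted p = 4.5e-08). MET6, the methionine synthase, stood at 1.74 and 1.88 against -0.60 to -0.11 (adjusted p = 1.5e-05). MET17, which joins sulfide to the carbon chain of homocysteine, stood at 1.79 and 1.83 against -0.37 to 0.10 (adjusted p = 1.4e-09). MET17 is also a common strain marker, and the labels do not give its allele in yJS4 or yMD13. STR3, a cystathionine lyase, stood at 1.47 and 2.14 against -0.85 to -0.20, and was not called without array B (adjusted p = 0.07).

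The S-adenosylmethionine synthetase genes SAM1 (0.99 and 0.98) and SAM2 (0.94 and 1.09) rose. So did the sulfate-activating enzyme MET3 (0.84 and 0.97), the sulfite reductase subunit MET10 (0.81 and 0.85), and CYS3 (0.90 and 0.77) and CYS4 (0.74 and 0.57), which convert homocysteine to cysteine. SAM1 and MET3 were not called without array B (adjusted p = 0.051 and 0.072), nor CYS3 and CYS4 without array A (0.16 and 0.094). The uptake genes SUL1 (-0.19 and -0.10) and SUL2 (0.01 and -0.13) were not called, and neither were the activator MET4 (-0.20 and -0.03) and its cofactors MET28, MET31 and MET32. SAM4, a homocysteine methyltransferase, was the member that fell, at -0.65 and -0.78 (adjusted p = 0.0021; 0.1 without array A).

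**Figure D4:**
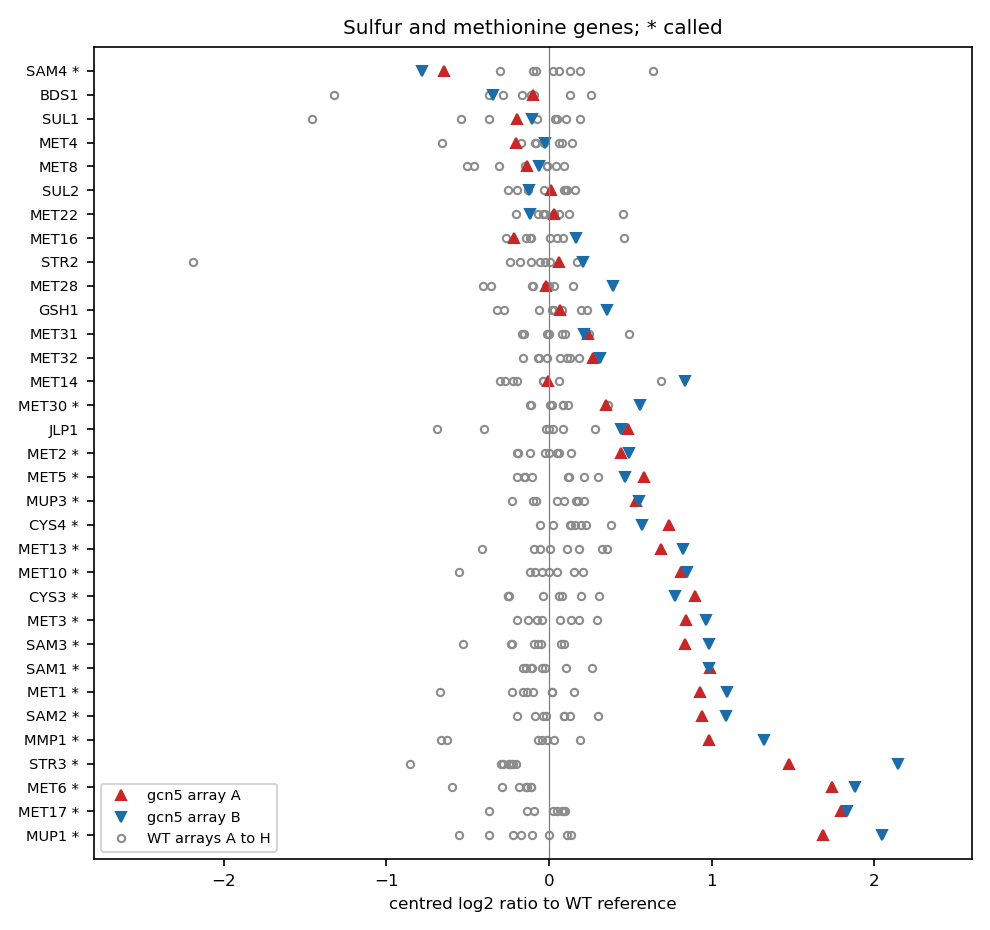
Centred log2 ratio to the WT reference (x axis) of the 33 sulfur and methionine genes on gcn5 array A, gcn5 array B and the 8 WT arrays, with called genes starred. MUP1, MET17, MET6 and STR3 lie above 1.4 on both gcn5 arrays, and the transcription factor genes MET4, MET28, MET31 and MET32 have no star.

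Of 64 stress genes under the activators Msn2 and Msn4, 35 rose (54.7%, against 9.0% of all genes) and 1 fell. Their median was 0.61 (0.68 and 0.73 on the 2 arrays), against -0.31 to 0.09 on the WT arrays. The number that rose was 22 without array A and 12 without array B. It was 20 with a slide-run block and 24 with dye swaps averaged. The list stood higher in 2 other mutants, with medians of 0.92 in esa1 and 1.595 in ts2. In gcn5 TSL1, a subunit of trehalose synthase, stood at 1.47 and 1.46 against -0.58 to 0.05. NQM1 and TKL2, of the pentose phosphate pathway, stood at 1.43 and 1.48 and at 1.75 and 1.68 (TKL2 adjusted p = 0.058 without array A). PRX1, a mitochondrial peroxiredoxin, stood at 0.95 and 1.21 against -0.44 to 0.28 (adjusted p = 6.1e-07), and the vacuolar protease PEP4 at 0.85 and 0.74 against -0.21 to 0.07 (adjusted p = 0.00058).

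The glycogen synthase genes moved in opposite directions. GSY2, the main form, stood at 0.86 and 1.04 against -0.30 to 0.24 and rose (log2 change 0.95, SE 0.19, adjusted p = 0.00057; 0.069 without array B). GSY1 stood at -1.77 and -1.53 against -0.58 to 0.87 and fell (log2 change -1.65, SE 0.19, adjusted p = 6.1e-07; 0.00094 and 0.0002 without array A and B). Of 21 genes of glycogen and trehalose, 5 rose (23.8%) and 1 fell, with 2 higher without array A and 1 without array B. The share that fell was 4.8%, and of all genes 9.0% rose and 9.09% fell. TPS1 and PGM2 were the other members that rose with GSY2, GDB1 and TSL1. Every called member but GDB1 also stands among the 64 stress genes. The glycogen phosphorylase gene GPH1 stood at 1.01 and 1.09 and was not called (adjusted p = 0.17). GDB1, the debranching enzyme, was called (log2 change 1.46, adjusted p = 0.045) although WT arrays reached 2.02.

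Chaperone genes under Hsf1 gave 11 higher (30.6%, against 9.0% of all genes) and 1 lower of 36. Of those that rose, SSA3, SSA4, HSP12, HSP26, HSP42 and HSP104 also stand among the 64 stress genes. Without array A 2 rose and without array B 4. With a slide-run block 3 rose, as with dye swaps averaged. SSA3 stood at 2.56 and 2.15, against -3.74 to 0.07 in WT, the lowest being WT array A (adjusted p = 0.0036; 0.18 without gcn5 array A). The mitochondrial chaperones HSP60 (1.16 and 0.63) and HSP10 (0.97 and 0.59) rose, but both calls were lost without array A (adjusted p = 0.19 and 0.16), that of HSP10 also without array B (0.22). KAR2, the chaperone of the endoplasmic reticulum, fell, at -0.76 and -1.26 against -0.58 to 0.15 in WT (adjusted p = 3.2e-06; 8.4e-05 without array A and 0.0065 without array B).

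Central carbon metabolism rose in parts. The share that rose was 48.1% for the TCA and glyoxylate list, 30.0% for glycolysis and 22.2% for the respiratory list, against 9.0% of all genes. For hexose transporters 5.6% rose and 5.6% fell, below the 9.0% and 9.09% of all genes. Of 27 genes of the TCA and glyoxylate cycles 13 rose and 2 fell, with 9 higher without array A and 6 without array B. MDH2, the cytosolic malate dehydrogenase, stood at 1.20 and 1.19, and ACO1, the aconitase, at 1.36 and 0.89, above all WT arrays. The isocitrate dehydrogenase subunits IDH1 (1.09 and 0.57) and IDH2 (1.08 and 0.81) rose. ICL1, the isocitrate lyase of the glyoxylate cycle, fell (-0.94 and -0.52; adjusted p = 0.12 without array A). Glycolysis held 6 higher and 1 lower of 20, led by the hexokinase HXK1 (1.29 and 1.87; adjusted p = 0.1 without array B). Without array A 3 rose and without array B 2. The respiratory chain and ATP synthase held 8 higher of 36, led by ATP15 (1.17 and 1.14), with 1 higher without array B. Among 18 hexose transporters HXT3 rose (0.63 and 1.47) and HXT11 fell (-0.55 and -1.10). The call of HXT3 was lost without array B, and that of HXT11 without array A and also without array B.

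Genes of amino acid synthesis under Gcn4 gave 8 higher and 9 lower of 67 (11.9% and 13.4%, near the 9.0% and 9.09% of all genes) and a median of -0.05 (0.14 on the deposited scale). HIS4, which catalyses steps of histidine synthesis, stood at -0.76 on both arrays against -0.30 to 0.34 in WT (adjusted p = 0.0032; 0.16 without array B). HOM2 stood at -0.77 and -0.81 and HIS1 at -0.67 on both arrays, the latter lost without array A (adjusted p = 0.058) or array B (0.11). CPA1, of arginine synthesis, stood at 1.18 and 0.81 (adjusted p = 0.064 without array A), and the glutamine synthetase GLN1 at 0.94 and 1.03. GCN4 itself stood at 0.40 and 0.48 and rose (adjusted p = 0.02; 0.16 without array A and 0.22 without array B). Without array A 2 genes of the list rose and 3 fell, and without array B 5 rose and 1 fell.

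Of 19 genes often used to study Gcn5 in yeast, 6 fell (31.6%, against 9.09% of all genes). Another 2 rose (10.5%, near the 9.0% of all genes). YHB1, the nitric oxide dioxygenase, stood at -1.77 and -1.47 against -0.26 to 0.46 (adjusted p = 3.8e-06). The others that fell were PHO5, PHO8 and HIS4, described above, and the alcohol dehydrogenase genes ADH2 (-0.37 and -0.54) and ADH1 (-0.21 and -0.54). ARG1 (0.95 and 0.43) and BAP2 (0.45 and 0.80) rose. HO stood at 0.09 and -0.38 against -0.28 to 0.43, and INO1 at 0.36 and 0.06 against -1.97 to 0.62. HIS3, TRP3, SUC2, GAL1, GAL7, GAL10, CLN2, EGT2 and CUP1-1 were not called either. Leaving out array A left 2 lower and 1 higher, and leaving out array B 3 lower and 1 higher.

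Of 15 TFIID-related genes 4 rose (26.7%, against 9.0% of all genes) and none fell. Of 11 histone genes 2 fell (18.2%, against 9.09% of all genes) and none rose. BUR6, a subunit of the NC2 regulator of the TATA-binding protein, stood at 1.06 on both arrays against -0.03 to 0.29 (adjusted p = 5.9e-07). BDF1, a bromodomain protein that binds acetylated histone H4, stood at 0.86 and 0.60 against -0.30 to 0.16 (adjusted p = 4.8e-06). TAF8 (1.18 and 1.15) and TAF4 (0.55 and 0.39) rose too, and both calls were lost without array A (adjusted p = 0.058 and 0.055). TAF1 stood at -0.10 and -0.20. HTA2 (-1.05 and -0.67) and HTB2 (-0.64 and -0.74), a divergent pair for H2A and H2B, fell, while their paralogs HTA1 (-0.02 and 0.48) and HTB1 (0.12 and 0.33) were not called. The call of HTA2 was lost without array A (adjusted p = 0.085) and that of HTB2 without array B (0.33). Copies of a histone gene are close in sequence, so a spot may bind both. Among 26 genes of other acetyltransferase complexes EAF3, of NuA4, rose (0.66 and 0.53), and none fell. The share that rose, 3.8%, lies below the 9.0% of all genes.

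Ribosomal protein genes moved little. Of large-subunit genes 7.6% fell and of small-subunit genes 17.9%, against 9.09% of all genes. Of 79 large-subunit genes 6 fell, and of 56 small-subunit genes 10 fell and 1 rose, with medians of -0.13 and -0.14 that were 0.06 and 0.05 on the deposited scale, and no call was left without array A. Many of these genes are paired copies close in sequence. Among genes of ribosome biogenesis 14.4% rose, against 9.0% of all genes. Ribosome biogenesis held 16 higher and none lower of 111, led by RRP36 (1.10 and 0.72) and DBP2 (1.10 and 0.52), both lost without either array, with 4 higher without array A and 1 without array B. Of 60 genes of meiosis and sporulation 9 fell (15.0%, against 9.09% of all genes), led by NDJ1, a meiotic telomere protein (-1.52 and -2.10), and SPR6 (-1.70 and -1.61), with 4 lower without array A and 2 without array B. Cell wall genes held 7 higher and 5 lower of 36 (19.4% and 13.9%, against 9.0% and 9.09% of all genes). TIR3, a mannoprotein made at low oxygen, stood at 1.83 and 1.50 and rose (adjusted p = 0.15 without array A), and SLT2, the kinase of the cell wall pathway, at -1.09 and -0.42 and fell (adjusted p = 0.78 without array A). Without array A 2 of the list rose and none fell, and without array B 2 rose and 3 fell.

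Genes expressed in M and M/G1 held 7 higher (19.4%, against 9.0% of all genes) and 2 lower of 36 (5 higher without array A, 2 without array B). DSE4, a glucanase that parts daughter from mother, stood at 1.25 and 1.02, the chitinase CTS1 at 0.83 and 0.93 and DSE1 at 0.64 and 0.87. The cell-separation genes DSE2, DSE3, SCW11, EGT2 and AMN1 were not called (log2 changes 0.21 to 0.48), and the cyclin gene PCL9 fell (-1.03 and -0.71). The iron regulon held 5 higher and 1 lower of 31, and the copper chaperone ATX1 stood at 0.76 and 1.09 (adjusted p = 0.12 without array B). Without array A 1 iron gene rose. In the full fit 16.1% of the iron list rose and 3.2% fell, against 9.0% and 9.09% of all genes. The proteasome list held 2 lower of 36 (5.6%), RPT6 (log2 change -0.42) and RPN11 (-0.37). The genes of chromosome ends held 2 lower of 33 (6.1%), PAU4 (-0.48) and PAU14 (-0.43). Both of these shares lie below the 9.09% of all genes. Of 31 nitrogen-source genes, a list drawn up after values were seen, 3 rose and 4 fell. These shares, 9.7% and 12.9%, are near the 9.0% and 9.09% of all genes. The proline permease PUT4 stood at 1.57 and 1.63. Of 25 vitamin B1 and B6 genes, drawn up likewise, 3 rose and 4 fell, against 9.0% and 9.09% of all genes. The list's median log2 change was 0.03. SNZ1 stood at 1.90 and 1.49 and the thiamine transporter THI7 at 1.34 and 1.21, and THI2 rose too. The members that fell were SNZ2, THI4, SNO3 (-0.48 and -0.38) and PHO3, which is described above.

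Single genes outside these lists also moved far. YNL040W stood at -2.24 and -2.17 against -0.35 to 0.46 (adjusted p = 4.3e-10). YKR041W stood at 1.72 and 1.77 against -0.25 to 0.75, and YHR033W at 1.59 and 1.40 against -0.16 to 0.37. AHP1, a thiol peroxidase, stood at 1.82 and 1.36 against -0.24 to 0.33 (adjusted p = 3.8e-07). VID24, which directs gluconeogenic enzymes to breakdown, stood at 2.37 and 1.40. RCK1, a kinase of the oxidative stress response, stood at 0.31 on array A and 2.74 on array B, so its call (adjusted p = 0.018) rests on array B and ended without it (0.95). NRE1 (-1.59 and -1.34), FMP46 (-1.34 and -1.42) and NFG1 (-1.18 and -1.58) fell, below all WT arrays.

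The gcn5 and esa1 mutants were compared to ask where these HATs differ. Esa1 is the catalytic subunit of NuA4 and acetylates mainly histone H4. Both esa1 arrays lie in slide run 3 and both gcn5 arrays in slide run 2, so the mutants differ in run as well. The tests of the difference called 1083 of 5517 genes (19.6%), 443 with gcn5 higher (8.03%) and 640 with gcn5 lower (11.6%). The number called was 567 with the slide run as a block, which the counts below do not use. All 4 alpha-specific genes and 9 of 21 phosphate targets were lower in gcn5. MF(ALPHA)2 changed by 0.19 in esa1, a difference of -3.42 (SE 0.40, adjusted p = 7.8e-07), and PHO84 by -0.17, a difference of -3.03 (SE 0.73, adjusted p = 0.0041). GTO3, a glutathione transferase, stood at -0.87 in gcn5 and 1.38 in esa1. In glycolysis 15 of 20 genes, and in the Gcn4 list 29 of 67, were lower in gcn5 than in esa1. Of the 64 stress genes, gcn5 was lower in 8 and higher in 2. Of the 50 lipid genes 20 were lower, and of the 33 sulfur genes 5 were higher and 2 lower; MET6 changed by 0.28 in esa1. The count was 713 without gcn5 array A and 607 without array B.

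The comparison with ts2, a mutant of the TFIID subunit Taf1, called 2038 of 5542 genes (36.8%), 1151 with gcn5 higher (20.8%) and 887 lower (16.0%). Phosphate targets were lower in gcn5 in 13 of 22, with PHO84 at 0.88 in ts2 (difference -4.07, SE 0.60, adjusted p = 5.1e-06). All 21 nested genes with systematic names were lower in gcn5, and their median was 1.01 in ts2. Ribosomal protein genes were higher in gcn5, 69 of 79 and 52 of 56, beside medians of -0.94 and -1.12 in ts2. Pheromone outputs were lower in gcn5 in 14 of 20 and higher in 1. Of 64 stress genes 43 were lower in gcn5 than in ts2 and 1 was higher. Of 20 glycolysis genes 18 were lower and none higher. The alpha-specific genes were an exception: their median was -1.63 in ts2, none was lower in gcn5 and 1 was higher. HIS4 stood at -0.76 in gcn5 and 2.36 in ts2 (difference -3.12, SE 0.21, adjusted p = 1.2e-11). The mutants share the WT reference, so their changes are given side by side.

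Against the mean of elp3, hat1, hpa2 and sas3 the gcn5 mutant differed in 860 of 5356 genes (16.1%), 393 higher (7.34%) and 467 lower (8.72%). The arrays of these 4 mutants lie in slide runs 1 and 4 and those of gcn5 in slide run 2. The number called was 312 with the slide run as a block, which the counts below do not use. All 4 alpha-specific genes, 11 of 20 phosphate targets and 19 of 49 lipid genes were lower in gcn5, and 16 of 33 sulfur genes and 31 of 64 stress genes were higher. The medians of those lists in the 4 mutants ranged from -0.64 to 0.28 for alpha-specific genes and from -0.07 to 0.04 for sulfur genes. SPR6 was lower in gcn5 (difference -1.89, SE 0.19, adjusted p = 1.3e-07). The count was 331 without gcn5 array A and 500 without array B.

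The double mutant gcn5 ts2 differed from gcn5 in 1407 of 5536 genes (25.4%), 607 higher (11.0%) and 800 lower (14.5%). Each gcn5 array shares its slide with a gcn5 ts2 array. With the slide as a fixed block, so that the difference is taken within slides, 1693 genes were called, 1367 of them among the 1407. Of 64 stress genes 50 were higher in the double mutant, 33 of them among the 35 that rose in gcn5. The a-specific genes, not called in gcn5, had a median of 2.06 in the double mutant. Of the 7, only 3 were called higher there than in gcn5, and none lower. Of these 3, AGA2 was higher by 3.78 (SE 0.66, adjusted p = 0.0001). A dim reference signal (under 50) was found for 2 of the 7. Of 20 pheromone outputs 10 were higher in the double mutant and none lower, and of 50 lipid genes 4 were higher and 18 lower. Of the nested genes 1 of 21 differed and of the phosphate targets 5 of 22. The count was 934 without gcn5 array A.

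**Figure D5:**
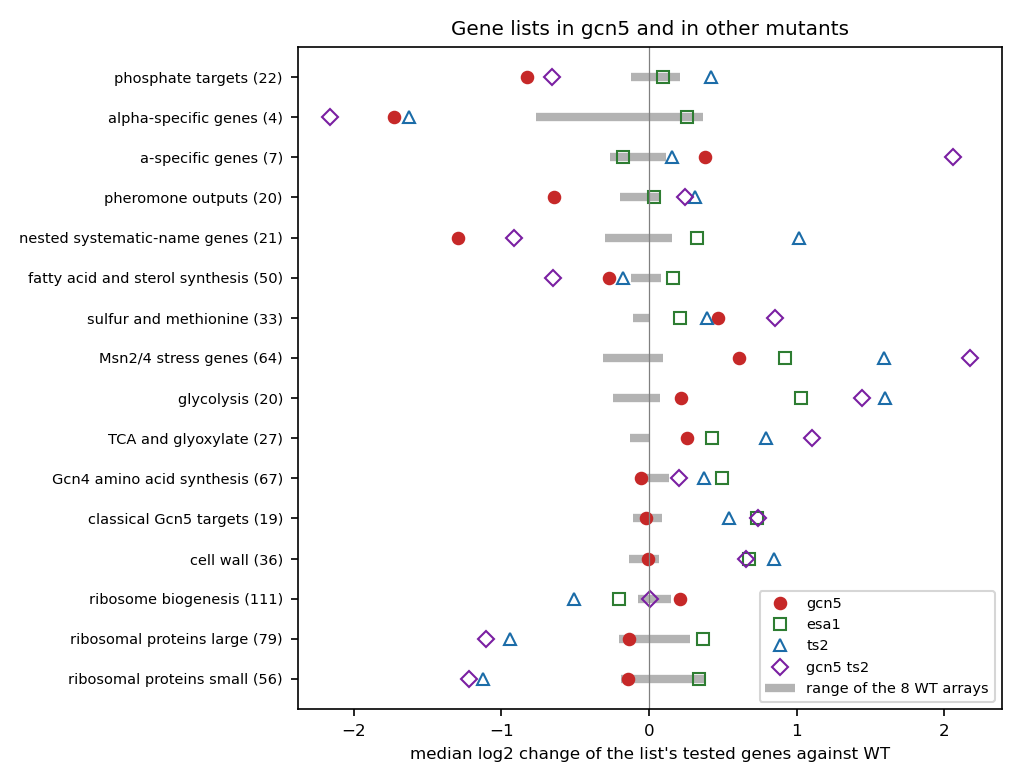
Median log2 change against WT (x axis) of the tested genes of 16 lists, their number in brackets, in gcn5, esa1, ts2 and gcn5 ts2, with the range of the list's median on the 8 WT arrays as a grey bar. Phosphate targets and the nested genes are low in gcn5 and gcn5 ts2 and not in ts2 or esa1, and alpha-specific genes are low in gcn5, ts2 and gcn5 ts2.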

How the data were processed

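The authors deposited, per the labels, 1 linear ratio of test strain over WT reference per spot for 38 arrays. Per the series' design text the authors normalized dye swaps by their mode and corrected them with Bacillus subtilis spike controls. The deposited ratios are quotients of 2 whole numbers for 88.3 to 99.0% of values (tolerance 6e-10), against at most 1.3% after rescaling, and array medians run from 0.607 to 2.4 on WT arrays, the form a ratio of whole-number scanner signals has before scaling; whether the deposited values precede the authors' normalization is not stated. Of 7056 spots 5579 carry a gene, giving 5548 genes. Ratios at or below 0 (0.752 to 2.89% on the gcn5 and WT arrays) have no log2 and were left out. Scanner intensity and background were not used here; the reduced denominator of a quotient gave a lower estimate of the reference signal, used in 1 alternative. Precision is limited by how many arrays there are.

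The log2 ratios were centred on each array's median, and spots of 1 gene averaged. limma (3.58.1, R 4.3.3) was fitted to all 38 arrays with a coefficient per mutant, WT fixed at 0 and a dye term per gene, with Benjamini-Hochberg adjustment over all genes with values on both gcn5 arrays and at least 6 WT arrays. The dye orientation of WT arrays came from the slide mate or letter. Residual degrees of freedom were 24. The fit was also run on simulated data with known changes in gcn5 and noise drawn independently for each array. It recovered 38% of changes of 0.5 and 96% of changes of 2 on the log2 scale. Arrays of the same slide or run were not made alike there, so the simulation cannot show how such likeness affects the calls.

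The members, lists and rules were chosen with earlier results of these data known. The rule for genes to name took the 25 largest rises and falls, all measured members of the phosphate, mating, pheromone, glycogen, SAGA, classical-target and neighbour lists, the 4 largest of each other list, the 5 largest each way per contrast and 3 systematic names each way. The text names part of them and summarises the rest in counts; further members of lists, and 4 lists in all, were chosen after their values were seen. RefSeq's gene table (R64) gave names and gene order; the build of the arrays' primers is not given in the sources used here. Array letters do not pair samples: deviations of same-letter arrays correlated at -0.10 (A) and -0.48 (B).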

Additional observations from a re-analysis of the deposited data

Results flagged for a closer look

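In groups of 8 arrays, a WT array was flagged when its gap to the nearest other array, over the group's range, passed Dixon's limit, which chance passes in about 1 of 20 groups. Of 38 list medians 5 were flagged. WT array A stood apart for glycogen and trehalose (-0.41), the TFIID list (0.22) and the proteasome (0.34), and WT array E for the alpha-specific genes (-0.76) and the TCA and glyoxylate cycles (-0.13). Of 160 genes named and called in gcn5, 13 were flagged. WT array A stood apart at SSA3 (-3.74), MET6 (-0.60), STR3 (-0.85), KAR2 (-0.58), GLN1 (0.42) and SAP30 (0.65). WT array H did so at CAK1 (-2.99), TIR3 (0.82), PHO84 (-1.50) and FUS1 (1.12), WT array E at STE3 (-0.68) and MDH2 (-0.68), and WT array B at PUT4 (-1.17). Both gcn5 arrays lay outside the whole WT range for each of these 13 genes.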

How the results depend on the processing

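No named gene and no count of calls changed direction while called, but on the deposited scale the list medians turned sign for large (-0.13 to 0.06) and small (-0.14 to 0.05) ribosomal proteins, Gcn4 genes (-0.05 to 0.14), haploid-specific genes (-0.18 to 0.01), histones (-0.10 to 0.09), pheromone signalling (-0.03 to 0.16), G1/S (-0.12 to 0.07), the iron regulon (-0.09 to 0.10), chromosome ends (-0.19 to 0.004), classical targets (-0.02 to 0.17), the cell wall (-0.004 to 0.19), other acetyltransferases (-0.01 to 0.18) and nitrogen-source genes (-0.06 to 0.13). The 1003 genes called (499 higher, 504 lower) became 29 (23 and 6) on the deposited scale, 531 (254 and 277) with each dye-swap pair averaged, 461 (212 and 249) with the slide run as a fixed block and 1750 (849 and 901) within slide run 2 alone; 511, 440 and 989 of the 1003 were called again in the last 3 of these in the order given. Averaging dye swaps is the alternative that treats arrays A and B as 1 replicate. Leaving out 1 array gave 415 to 1056 calls (171 to 533 lower, 195 to 523 higher). With the replicate block of array letters, which the labels do not tie to a shared origin, the counts were 312, 146 and 166. The contrast with esa1 called 0 genes in limma on the deposited scale (469 at an unadjusted p under 0.05) and 567 with the slide-run block, that with ts2 164 on the deposited scale, that with the other HAT mutants 12 and 312, and that of gcn5 ts2 with gcn5 2 on the deposited scale. Without 1 gcn5 array the 4 contrasts called 607 to 713, 1386 to 1422, 331 to 500 and 934 to 1005. With the slide as a random block, chosen after seeing the data, they called 1075, 2032, 810 and 1693. Of 125 genes with a dim reference signal (under 50, an alternative chosen after seeing the data) 1 was called, SPR3, and 1002 calls lay above that limit. Of 262 named genes 70 moved to the other side of the threshold without array A, 54 without array B and at most 4 without any 1 WT array. The causes were not tested.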
